A study of Bos taurus with 9 samples.

Results

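New H3K9ac sites without H3K27ac were stretches of chromatin of Madin-Darby bovine kidney (MDBK) cells, an established kidney epithelial line from cattle, that entered the H3K9ac peak list only after butyrate and lay outside every H3K27ac peak. They were selected on the deposited peak positions alone. A peak of the butyrate H3K9ac list was taken when it shared no base with a peak of the control H3K9ac, the control H3K27ac or the butyrate H3K27ac list. In all, 36790 of 115104 butyrate H3K9ac peaks on nuclear chromosomes met the rule (32.0%), out of 673926 peaks in the 8 lists of the study. The 10 mitochondrial peaks of the butyrate H3K9ac list were left out.

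Cells were either untreated (control) or given 5 mM butyrate for 24 h, and chromatin was precipitated with antibodies to H3K9ac, H3K27ac, RNA polymerase II (Pol II) and H3K9me3. The 8 libraries had no replicates, since every antibody was used once per condition. Sequencing lane 4 carried all control libraries and lane 5 all butyrate ones, and lane and treatment therefore cannot be told apart. Intervals below are 95% intervals over peaks that cover counting error only, and no test of treatment was possible. Read depth was not used here, and the lists held no expression values against which the kidney epithelial identity of the line could be checked.

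Butyrate is a short-chain fatty acid of microbial fermentation that inhibits histone deacetylases, the enzymes that take acetyl groups off histone tails. Acetyl groups on lysine 9 and lysine 27 of histone H3 (H3K9ac and H3K27ac) mark active promoters and enhancers and are usually found together, although different acetyltransferases favour each: GCN5 and PCAF write most H3K9ac, and p300 and CBP write most H3K27ac. Trimethylation of lysine 9 (H3K9me3) marks heterochromatin and silenced repeats, and 1 histone tail cannot carry H3K9ac and H3K9me3 at the same residue. A peak list averages over many cells and both alleles, so peaks of both marks can still overlap.

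The members were the most numerous of the 8 classes into which the other 3 acetyl lists divided the butyrate H3K9ac list. The next class, 29045 peaks (25.2%), was new in H3K9ac and met a butyrate H3K27ac peak but no control one. These H3K9ac peaks are called new doubly acetylated peaks here. The butyrate H3K27ac peak itself was not required to lie clear of control H3K27ac peaks. Peaks present in all 4 acetyl lists numbered 24275 (21.1%). New H3K9ac on H3K27ac that control cells already had was less frequent, with 11478 peaks (9.97%). H3K9ac peaks kept from control cells without H3K27ac in either condition numbered only 3218 (2.80%). Of the butyrate H3K27ac list, 85802 peaks (45.8%) were the mirror image, present only after butyrate and met by no H3K9ac peak. These counts follow from the selection and are a description.

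**Figure D1:**
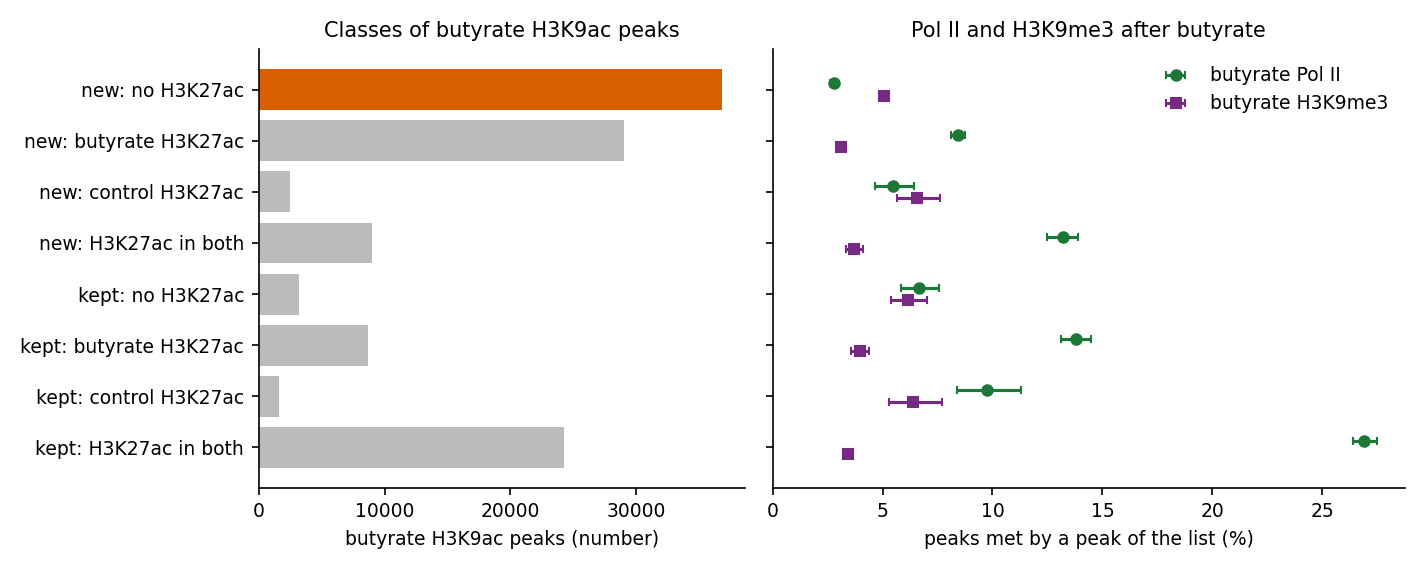
Left, number of butyrate H3K9ac peaks in each of the 8 classes set by overlap with control H3K9ac (kept or new), control H3K27ac and butyrate H3K27ac; the orange bar is the 36790 new peaks without H3K27ac. Right, share of each class (%) met by a butyrate Pol II peak (circles) or a butyrate H3K9me3 peak (squares), with 95% Wilson intervals; in each pair of classes that differ only in butyrate H3K27ac, the class without it had the lower Pol II and the higher H3K9me3 share.

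The members were short. Their median length was 239 bp (interval of the median 238 to 239), with quartiles of 204 and 296 bp and a 95th percentile of 432 bp. The other butyrate H3K9ac peaks had a median of 294 bp, the new doubly acetylated ones 268 bp and the kept ones with H3K27ac 332 bp. The shortest length in every list was 199 bp, and 7666 members (20.8%) were at that minimum, against 9.40% of the other butyrate H3K9ac peaks. Only 861 members (2.34%) reached 500 bp and 6 reached 1 kb, whereas 14.5% and 639 of the other peaks did. Together the members covered 9.80 Mb, or 0.368% of the span of the chromosomes.

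The lists run in blocks, each sorted by position, and what set the order of the blocks is not given in the sources used here. When the butyrate H3K9ac list was cut into 10 equal parts in that order, members made up 11.7% of the peaks in the first part and 24.9% in the second. In the other 8 parts they made up between 29.9% and 37.9%. Peaks of the first part were also the longest, with a median of 291 bp for its members and 397 bp for its other peaks, against 239 and 278 bp in the last part.

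The 10 longest members spanned 906 to 1229 bp. The longest lay on chromosome 23 from 19830268 to 19831496 (UMD3.1), 6.52 kb from the nearest butyrate H3K27ac peak, and met no peak of the Pol II or H3K9me3 lists. The second, on chromosome 8 from 75888261 to 75889477 (1217 bp), met a butyrate Pol II peak and stood 45.0 kb from the nearest acetyl peak of the other 3 lists. The third, on chromosome 17 from 33750517 to 33751716 (1200 bp), met a butyrate H3K9me3 peak and began or ended only 60 bp (0.0600 kb) from a butyrate H3K27ac peak. The long members were thus found both beside other acetylated sites and far from them. Among the remaining 7, those on chromosome 14 from 64973235 to 64974304, on chromosome 23 from 32265611 to 32266629 and on chromosome 4 from 46810069 to 46811060 met butyrate Pol II alone. The one on chromosome 5 from 101809066 to 101809999 met Pol II in both conditions, and the one on chromosome 4 from 66759759 to 66760664 met control H3K9me3. The last 2, on chromosome 4 from 60265184 to 60266196 and on chromosome 15 from 26615539 to 26616459, met none of these lists. Genes at these positions are not named, since no annotation of this build was used here.

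Although they lay outside the other 3 acetyl lists, 80.3% of the members had a peak of these lists under 10 kb away. The nearest peak of the 3 lists used for the selection was under 1 kb away for 13595 members (37.0%), 1 to 10 kb away for 15931 (43.3%), 10 to 50 kb away for 6007 (16.3%) and farther for 1257 (3.42%). The median distance was 1.94 kb to the nearest of the 3 lists and 3.11 kb to butyrate H3K27ac. To control H3K27ac it was 7.38 kb and to control H3K9ac 9.45 kb. The new doubly acetylated peaks lay closer to both control lists, with medians of 2.75 kb to control H3K27ac and 3.79 kb to control H3K9ac. Butyrate H3K27ac supplied the nearest peak for 60.2% of the members. It was also the largest list of the 8, with 187465 nuclear peaks. The 3 most remote members lay 1492 kb from any of the 3 lists (chromosome 1, 157912947 to 157913164), 1117 kb (chromosome 22, 26495963 to 26496287) and 991 kb (chromosome 26, 29697404 to 29697602). They were 218, 325 and 199 bp long, and only that on chromosome 26 met another list, butyrate H3K9me3.

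At the limit of the rule the peaks inside and outside it were alike in length. There were 294 members with a gap of at most 10 bp to a peak of the 3 lists (median 234 bp), 35 of them touching it end to start. A further 302 butyrate H3K9ac peaks overlapped those lists by 10 bp or less (median 246 bp) and were left out. Within 50 bp of the limit there were 1308 members and 1764 excluded peaks, of which 4.82% and 5.33% met butyrate Pol II and 4.36% and 3.91% met butyrate H3K9me3.

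Coverage by the lists of the selection was also followed outward from the member centres, as a description. Butyrate H3K27ac peaks covered 6.89% of the bases between 500 bp and 2 kb from the member centre and 6.65% of those 20 to 50 kb away, a ratio of 1.04. Around the new doubly acetylated peaks the same values were 24.1% and 11.5%, a ratio of 2.09. Control H3K9ac at 500 bp to 2 kb covered 2.14% beside members, less than the 2.37% farther away, and 4.49% beside the new doubly acetylated peaks, more than the 3.26% farther away. The selection used these lists for both classes, so it set the dip at the centre and could shape the nearby values too.

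**Figure D2:**
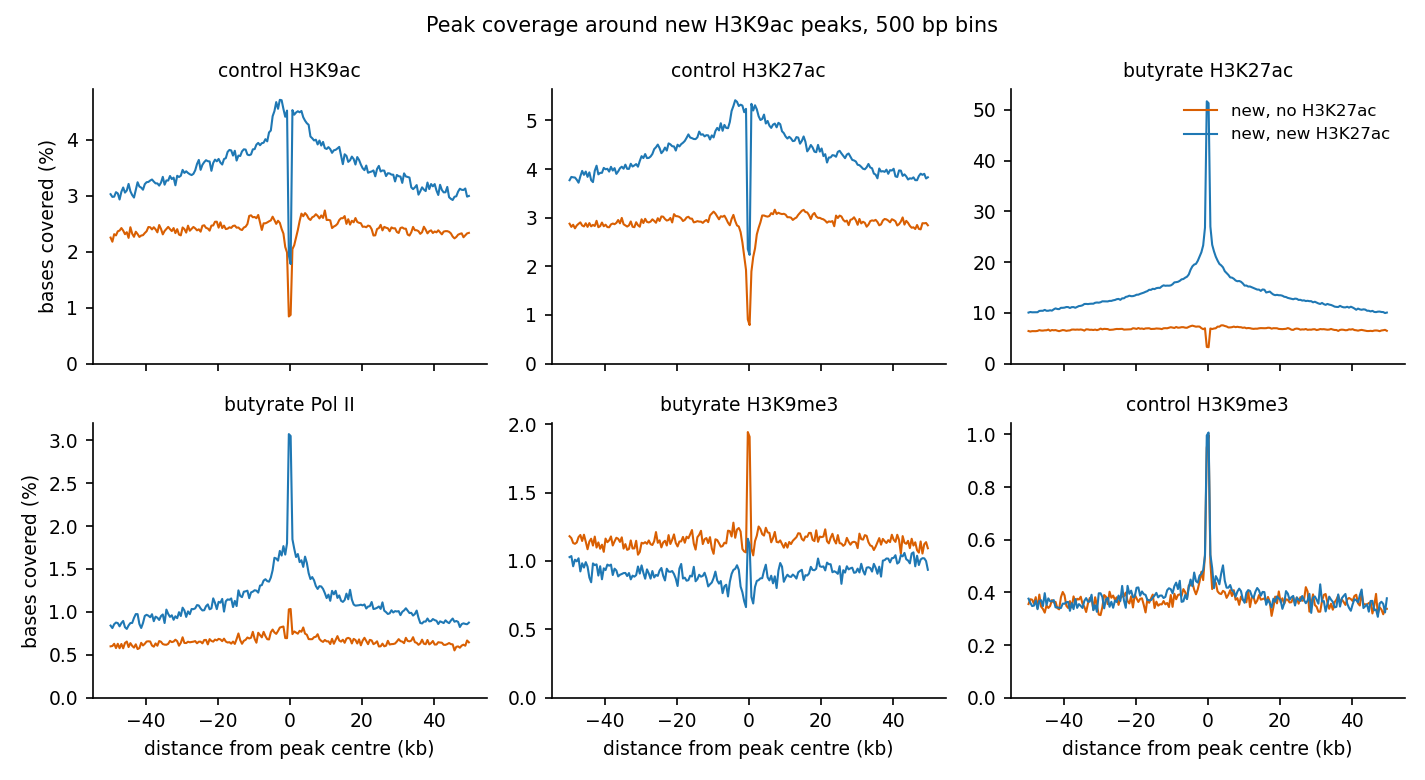
Share of bases (%) covered by peaks of 6 lists in bins of 500 bp against distance from the peak centre (kb), for the 36790 new H3K9ac peaks without H3K27ac (orange) and the 29045 new doubly acetylated peaks (blue). The 3 upper panels are lists that the selection used; in the lower panels butyrate Pol II had a lower peak at the orange centres and butyrate H3K9me3 a higher one, while the control H3K9me3 lines lay together.

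The lists of Pol II and H3K9me3 took no part in the selection and were the independent readouts. Most members, 31535 (85.7%), met no peak of any of these 4 lists, 4630 met 1 list, 544 met 2, 71 met 3 and 10 met all 4. Among the new doubly acetylated peaks the share met by none was 81.4%, and 9 met all 4. Shares met in control and butyrate lists are not compared with each other, since the lists differ in size (56225 control against 31225 butyrate nuclear peaks in the Pol II lists, 25623 against 89478 in the H3K9me3 lists).

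Pol II was rare at members after butyrate. A butyrate Pol II peak met 1025 members (2.79%, interval 2.62 to 2.96), against 11.2% of all butyrate H3K9ac peaks. The new doubly acetylated peaks were met 3.02 times as often (8.41%), and members minus these peaks gave -5.63 percentage points (interval -5.99 to -5.27), with the members lower on 30 of 30 chromosomes. Peaks kept from control without H3K27ac stood at 6.65%, and kept peaks with H3K27ac at 22.8%. New H3K27ac peaks without H3K9ac came closest, at 3.06%, and the members differed from them by -0.273 percentage points (interval -0.474 to -0.0664). These peaks were longer than the members (median 270 bp). With 300 bp around each centre the intervals overlapped, at 2.85% for members (2.69 to 3.03) and 2.97% for these peaks (2.86 to 3.08). New H3K9ac on H3K27ac of control cells stood at 11.5%.

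Control Pol II, the list from untreated cells, met 2090 members (5.68%, interval 5.45 to 5.92), against 7.51% of all butyrate H3K9ac peaks. Over the 8 classes its share ran from 5.68% to 9.95%, and that of butyrate Pol II from 2.79% to 26.9%. The new doubly acetylated peaks stood at 6.90%, and members minus these gave -1.22 percentage points (interval -1.60 to -0.845), with the members lower on 25 of 30 chromosomes. This difference was not separated from 0 when only peaks of at least 500 bp were compared, or when a Pol II peak had to cover 50% of the H3K9ac peak. New H3K27ac peaks without H3K9ac stood lower than the members, at 3.47%, and the difference was 2.21 percentage points (interval 1.95 to 2.48). Both Pol II lists met 101 members, which is 9.85% of those with butyrate Pol II and 4.83% of those with control Pol II. Over all butyrate H3K9ac peaks, control Pol II met 12.8% of those with butyrate Pol II.

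Butyrate H3K9me3 was the list that members met more often than other H3K9ac peaks did. It met 1860 members (5.06%, interval 4.84 to 5.28), against 4.11% of all butyrate H3K9ac peaks and 3.10% of the new doubly acetylated ones. The latter difference was 1.96 percentage points (interval 1.66 to 2.26), with the members higher on 28 of 30 chromosomes. Members, which were 32.0% of the butyrate H3K9ac list, held 39.5% of the butyrate H3K9me3 peaks that lay on that list and 7.93% of the butyrate Pol II peaks that did. New H3K27ac peaks without H3K9ac were met less often (2.23%). Over all chromosomes together the kept peaks without H3K27ac were met more often than the members (6.15%). Members minus these kept peaks gave -1.10 percentage points (interval -2.01 to -0.285). By chromosome, however, the members were higher than these kept peaks on 18 and lower on 12. By length the members stood below the kept peaks in every class under 500 bp and above them from 500 bp (8.13% against 6.91%). The intervals overlapped in every length class. From 500 bp they were 6.49 to 10.1 for members and 4.09 to 11.5 for only 188 kept peaks.

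The same split ran through all 8 classes. In the 4 classes without a butyrate H3K27ac peak, butyrate H3K9me3 met 5.06% (members), 6.57% (new on control H3K27ac), 6.15% (kept, never H3K27ac) and 6.39% (kept on control H3K27ac). In the 4 classes with one it met 3.10%, 3.72%, 3.97% and 3.43%, in the same order of the other 2 lists. Butyrate Pol II ran the other way, with 2.79%, 5.49%, 6.65% and 9.75% without butyrate H3K27ac and 8.41%, 13.2%, 13.8% and 26.9% with it. The higher overlap with H3K9me3 was therefore not particular to the members. Over all chromosomes together, their share was the lowest of the 4 classes lacking butyrate H3K27ac.

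Over all chromosomes together, control H3K9me3 did not set the members apart from the new doubly acetylated peaks. It met 996 members (2.71%, interval 2.55 to 2.88), against 3.51% of all butyrate H3K9ac peaks and 2.94% of the new doubly acetylated ones. Members minus the latter gave -0.233 percentage points, with an interval of -0.490 to 0.0211 that held 0, and the members were the higher on 13 chromosomes and the lower on 17. The sign of this difference turned among peaks of at least 500 bp (5.81% against 5.56%), where its interval, -1.47 to 2.22, held 0 too. Without chromosomes 5 and 14 the difference was -0.380 percentage points (interval -0.617 to -0.145), with the members lower and 0 excluded. Of the members met by control H3K9me3, 159 (16.0%) were also met by butyrate H3K9me3, against 14.2% over all butyrate H3K9ac peaks.

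**Figure D3:**
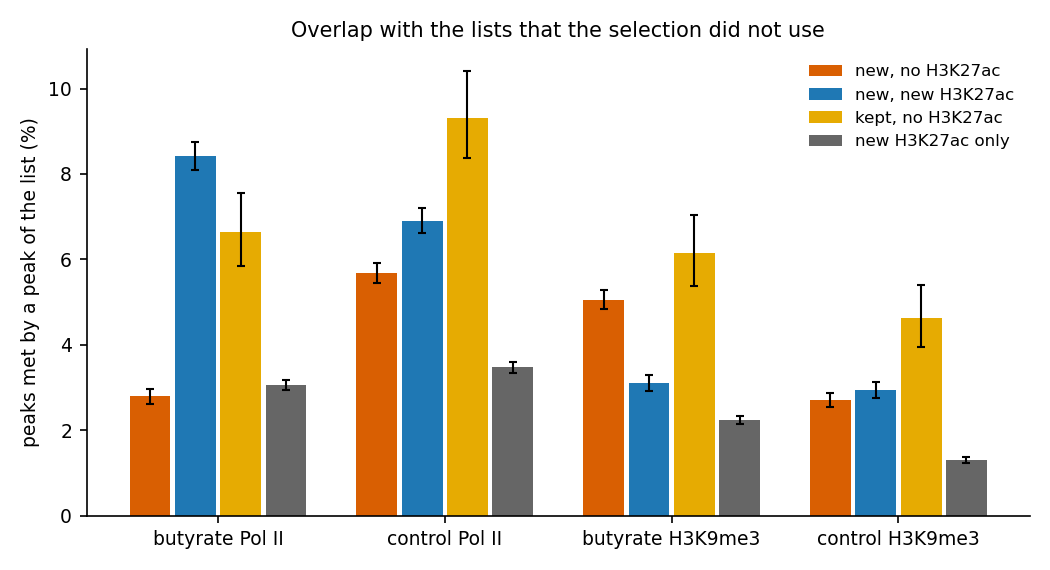
Share of peaks (%) met by a peak of the Pol II and H3K9me3 lists for 4 classes, with 95% Wilson intervals: new H3K9ac without H3K27ac (orange), new doubly acetylated peaks (blue), kept H3K9ac without H3K27ac (yellow) and new H3K27ac without H3K9ac (grey). Among the bars for butyrate Pol II the orange one was the lowest (2.79%), close to the grey one (3.06%). Among those for butyrate H3K9me3 the orange bar (5.06%) stood above the blue (3.10%) and grey (2.23%) bars and below the yellow one (6.15%).

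The same lists were also read as bases covered around the centres. Butyrate H3K9me3 peaks covered 1.92% of the bases within 500 bp of the member centres, 1.69 times the 1.14% found 20 to 50 kb away. At the new doubly acetylated peaks the values were 1.14% and 0.949%, a ratio of 1.20. For butyrate Pol II the ratio was 1.62 at members (1.03% over 0.636%) and 3.20 at the new doubly acetylated peaks (3.06% over 0.955%). The control lists had similar ratios at both classes. Control Pol II stood at 2.61 times its distant coverage at members and 2.79 times at the new doubly acetylated peaks, and control H3K9me3 at 2.68 and 2.75 times. All 8 lists were called against the same input library, and its part in this shared excess at the centres was not tested.

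Length moved with every share. From members under 250 bp to members of 500 bp or more, the share met by butyrate Pol II went from 2.22% to 6.16%, control Pol II from 4.90% to 11.7%, butyrate H3K9me3 from 4.54% to 8.13% and control H3K9me3 from 2.31% to 5.81%. A longer interval has more bases that can be met. When each peak was replaced by 300 bp around its centre, butyrate Pol II met 2.85% of the members and 8.32% of the new doubly acetylated peaks. The shares met by H3K9me3 of treated cells were then 5.22% and 3.04%. In all 4 length classes the members also stood below the new doubly acetylated peaks for butyrate Pol II (2.22% against 6.12% under 250 bp, and 6.16% against 15.9% from 500 bp). For butyrate H3K9me3 they stood above them (4.54% against 2.35%, and 8.13% against 5.56%).

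Distance from other acetylated sites split the 2 readouts. Butyrate H3K9me3 met 3.71% of members under 1 kb from a peak of the 3 lists used for the selection (interval 3.40 to 4.04). It met 5.65% of those 1 to 10 kb away and 6.56% of those 10 to 50 kb away (interval 5.96 to 7.21). For the 1257 members beyond 50 kb the share was 4.93% (interval 3.87 to 6.27). Butyrate Pol II went down over the same classes, from 3.34% to 2.60%, 2.20% and 1.99%. Control Pol II was level at 5.77%, 5.87% and 5.39% and stood at 3.66% beyond 50 kb, and control H3K9me3 stayed between 1.91% and 2.85%. Median member length was 239, 239 and 238 bp in the 3 nearer classes and 228 bp beyond 50 kb.

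**Figure D4:**
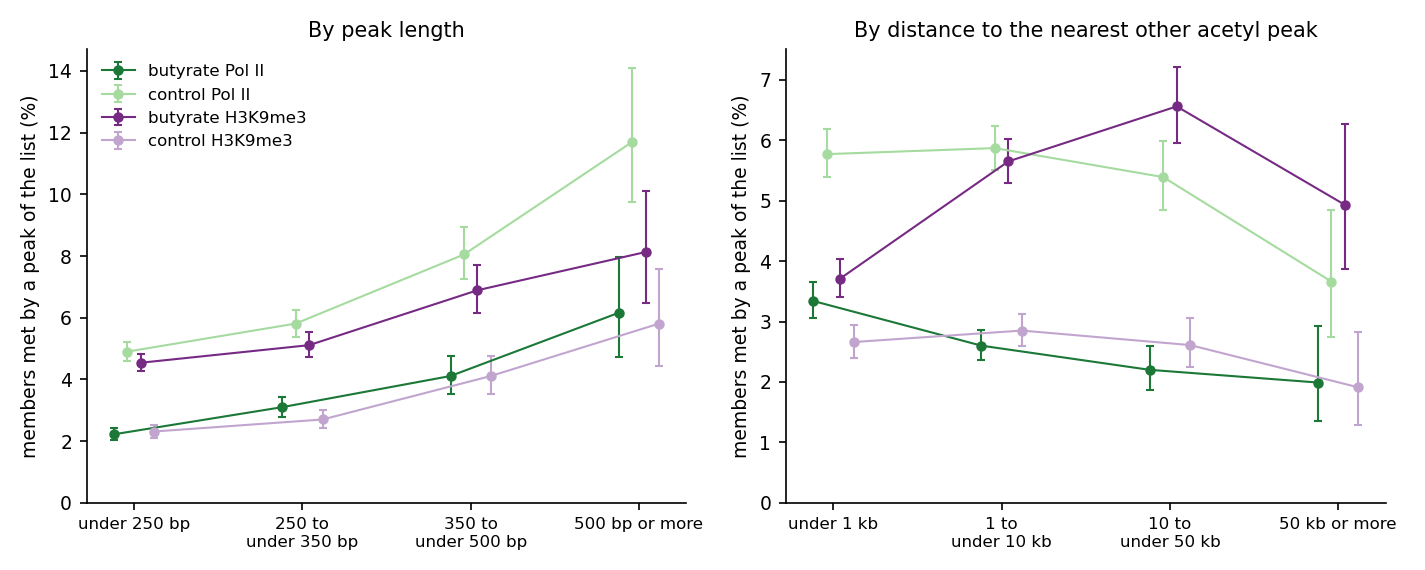
Share of members (%) met by a peak of each Pol II and H3K9me3 list, with 95% Wilson intervals, by member length (left) and by distance to the nearest peak of the 3 acetyl lists used for the selection (right). All 4 shares were higher in longer members, whereas over the 3 nearer distance classes butyrate H3K9me3 went up from 3.71% to 6.56% and butyrate Pol II went down from 3.34% to 2.20%.

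The 3 longest members met by butyrate H3K9me3 were that on chromosome 17 given above, 1 on chromosome 5 from 94784652 to 94785530 (879 bp) and 1 on chromosome 14 from 72049895 to 72050716 (822 bp). The last also met butyrate Pol II and control H3K9me3. The 3 longest met by control Pol II were the 934 bp member on chromosome 5 given above, 1 on chromosome 9 from 73356621 to 73357481 (861 bp, Pol II in both conditions) and 1 on chromosome 19 from 39933551 to 39934347 (797 bp, control Pol II alone). For control H3K9me3 they were the 906 bp member on chromosome 4 and the 822 bp member on chromosome 14, both given above, and 1 on chromosome 11 from 11775209 to 11776020 (812 bp). The 3 longest of the 10 members met by all 4 lists lay on chromosome 5 (112499673 to 112500203, 531 bp), chromosome 6 (6027598 to 6027998, 401 bp) and chromosome 1 (152361958 to 152362242, 285 bp). These regions met Pol II and the silent mark in both conditions.

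Another member was within 10 kb of 21127 members (57.4%), and the median gap to the nearest was 7.16 kb. New doubly acetylated peaks lay closer to one another although they were fewer, with 70.4% within 10 kb of another of their class and a median gap of 3.44 kb. The selection placed that class on H3K27ac peaks, which could shape its spacing. Over all 115104 butyrate H3K9ac peaks, 89.5% had another within 10 kb, with a median gap of 1.05 kb. Joined over gaps of up to 10 kb, the members formed 23621 groups, of which 15663 were single peaks and 537 held 5 or more (3113 members). The largest groups held 13 members each, on chromosome 4 from 56029216 to 56084721 (55.5 kb) and on chromosome 10 from 646676 to 692975 (46.3 kb). Of the groups of 12, the one named by the rule lay on chromosome 6 from 70760795 to 70807127 (46.3 kb). Members of these 3 groups were all short, with medians of 232, 250 and 252 bp and none above 435 bp. Butyrate H3K27ac peaks lay between them in each group, 8, 10 and 4 of them.

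Along the genome the members followed acetylated territory in number and left it in share. Windows of 1 Mb with 100 or more control acetyl peaks held 26.1 members each, and there members were 26.4% of the butyrate H3K9ac peaks. Windows with 10 to 49 control acetyl peaks held 9.79 members, or 42.6% of the peaks, and windows with 1 to 9 held 1.85, or 56.2%. In the 231 windows without a control acetyl peak 52 of 62 butyrate H3K9ac peaks were members (83.9%). A peak in such a window can be excluded only by butyrate H3K27ac, so this rise in share was partly set by the rule. The 2 windows with the most members, 64 each, were chromosome 1 from 72000001 to 73000000, where they were 56.6% of 113 butyrate H3K9ac peaks, and chromosome 17 from 18000001 to 19000000, where they were 40.5% of 158. The window on chromosome 20 from 18000001 to 19000000 followed with 61 of 172 (35.5%).

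By chromosome the member share ran from 26.6% on chromosome 19 to 36.2% on chromosomes 4 and 7 among the autosomes. The X chromosome stood apart, with 303 members among 601 butyrate H3K9ac peaks (50.4%, interval 46.4 to 54.4). It was also the poorest in members for its size, with 2.04 per Mb against 8.63 to 18.8 on the autosomes, and its members were the shortest, with a median of 215 bp against 235 to 245 bp. Butyrate H3K9ac peaks were thus few on X, and a larger share of them than on any autosome was new and outside H3K27ac. The rule itself can raise this share where the lists used for the selection hold few peaks that could exclude a member. Over all windows the share was 56.2% with 1 to 9 control acetyl peaks and 26.4% with 100 or more. Whether X differed from autosomal windows with equally few acetyl peaks was not tested.

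Chromosomes 5 and 14 were set apart by the other lists. Butyrate H3K9me3 met 14.6% and 15.3% of their members, against 2.25% to 7.23% on every other chromosome. Control H3K9me3 met 10.5% and 9.04% (elsewhere 1.01% to 4.01%), control Pol II 15.0% and 14.9% (elsewhere 2.93% to 8.33%) and butyrate Pol II 5.77% and 6.60% (elsewhere 1.35% to 3.98%). The 4 lists stood higher together there, for Pol II and the silent mark alike, and the cause was not tested. The excess was not particular to the members: butyrate H3K9me3 met 12.6% of all butyrate H3K9ac peaks on these 2 chromosomes and 3.16% elsewhere, and 9.13% and 2.57% of the new doubly acetylated ones. Without these chromosomes the members' shares were 4.08% for butyrate H3K9me3 and 2.46% for butyrate Pol II, and both differences from the new doubly acetylated peaks kept their direction and excluded 0.

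**Figure D5:**
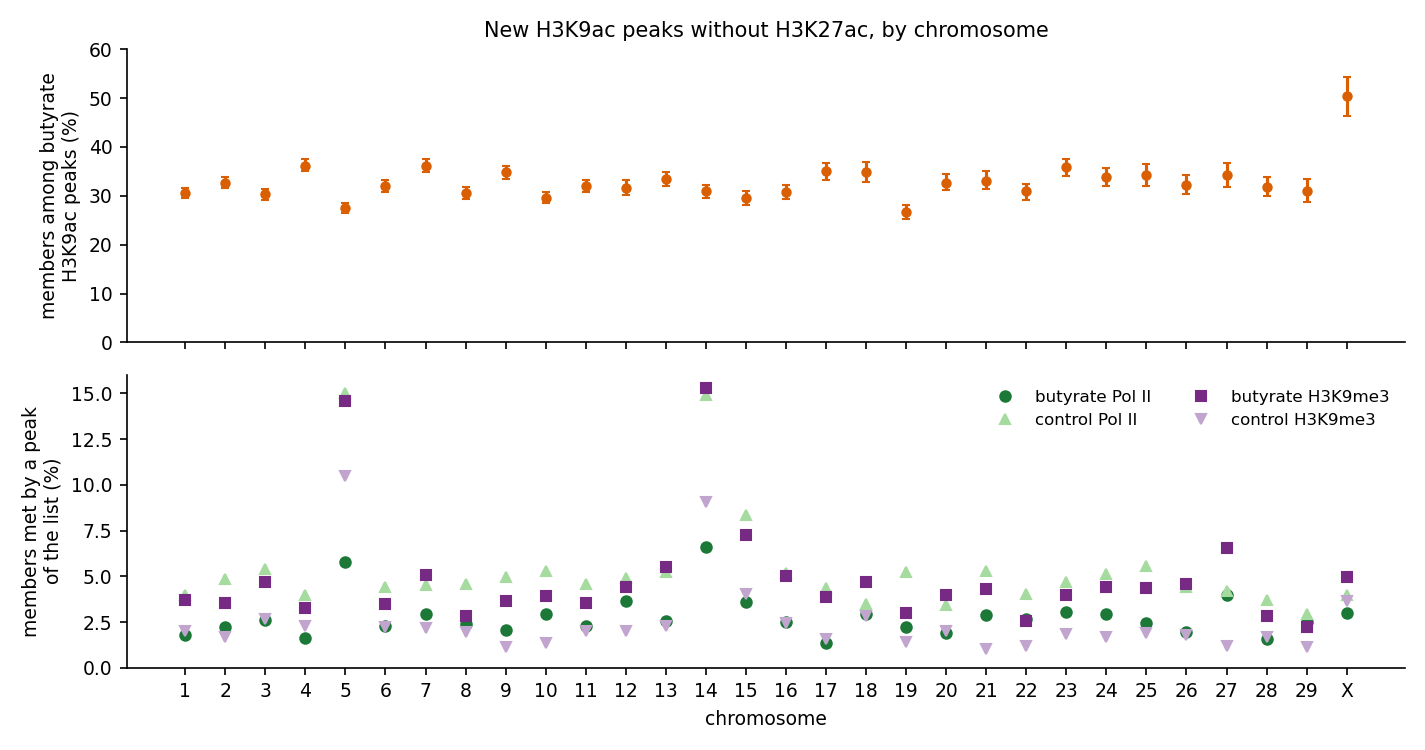
Top, members as a share (%) of the butyrate H3K9ac peaks of each chromosome, with 95% Wilson intervals; X stood at 50.4% and the autosomes between 26.6% and 36.2%. Bottom, share of the members of each chromosome (%) met by each Pol II and H3K9me3 list; chromosomes 5 and 14 stood above all others in all 4 lists.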

How the data were processed

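The deposited files were 8 lists of peak positions (chromosome, start and end, in bp), 1 per library, without score, height or p-value. According to the methods of the study and the labels, the authors removed reads that failed the sequencer's filter, aligned the 75-nt reads to the cattle assembly UMD3.1 with BWA, kept uniquely placed reads and ran MACS2 on every library by itself against 1 MDBK input library. The labels also name Trim Galore 0.4.1, without its role for these libraries. The input is not analysed here. Without heights, peaks could be filtered only by length. The number of peaks called depends on read depth, which was not used here.

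From these positions overlaps of at least 1 bp, distances and covered bases were computed with Python 3.11.15, numpy 2.4.6, pandas 2.3.3 and scipy 1.17.1. Lengths are end minus start, and 1 was added to printed starts. If the lists count starts from 1, both are off by 1 bp. Overlap calls were checked against a direct search and on simulated peaks. Shares have 95% Wilson intervals, differences of shares Newcombe intervals and medians exact binomial intervals. Neighbouring peaks are not independent, so the number of chromosomes in each direction is also given. Windows were 1 Mb, and the span of a chromosome was the last peak end in any list.

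The members, the classes they are set beside and the chromosomes left out as an alternative were chosen with earlier results of these data known. Regions were named by a rule: the 10 longest members, the 3 longest met by each Pol II and H3K9me3 list, the 3 largest groups, the 3 fullest windows, the 3 most remote members and at most 3 members met by the most lists. The only gene table given was of another assembly (ARS-UCD2.0), so no gene was named and no sequence property was computed. Alternatives were a minimum length, exclusion of members at the minimum length, a distance of 1 kb from other acetyl peaks, 50% coverage, overlap within 1 kb, a 300 bp interval around centres autosomes alone and leaving out chromosomes 5 and 14. Chosen after seeing the data were starts counted from 1, and the alternatives applied to the differences between classes.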

Additional observations from a re-analysis of the deposited data

How the results depend on the processing

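The number of members stayed within 1.5 times of 36790 in 5 of 8 alternatives. It was 861 for butyrate H3K9ac peaks of at least 500 bp, 3280 when peaks of all 4 acetyl lists had to reach 500 bp, and 23195 when no other acetyl peak could lie within 1 kb. Shares met by butyrate Pol II, control Pol II, butyrate H3K9me3 and control H3K9me3, in that order, became 6.16%, 11.7%, 8.13% and 5.81% from 500 bp, 1.73%, 3.47%, 3.32% and 1.61% with 50% of the member covered, 7.82%, 14.1%, 11.7% and 6.59% for a peak within 1 kb, and 2.46%, 4.76%, 4.08% and 1.98% without chromosomes 5 and 14. Butyrate Pol II was also 2.96% without members at the minimum length and 2.46% without members within 1 kb of another acetyl peak, where butyrate H3K9me3 was 5.85%. Median length was 559 bp from 500 bp and 258 bp without the minimum length. The median distance to butyrate H3K27ac was 2.95 kb without members at the minimum length and 7.10 kb beyond 1 kb. The share with another member within 10 kb was 3.02%, 51.3% and 47.0% from 500 bp, without the minimum length and beyond 1 kb. Fewer members remain in these 3 alternatives by construction.

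There were 36 alternatives for the differences between members and new doubly acetylated peaks. In 32 the direction was kept, and the interval excluded or held 0 as the main one did. All of those for butyrate Pol II and butyrate H3K9me3 were among them and excluded 0. Those among them for control H3K9me3 held 0, so their direction was not separated from 0. The control Pol II difference no longer excluded 0 from 500 bp (-2.36 percentage points, interval -4.85 to 0.345) and with 50% coverage (-0.201, interval -0.489 to 0.0834). The control H3K9me3 difference was -0.380 without chromosomes 5 and 14 (interval -0.617 to -0.145), excluding 0. From 500 bp its sign turned to 0.244, but the interval, -1.47 to 2.22, held 0 as the main one did. The cause of the change without chromosomes 5 and 14 was not tested.

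No paired analysis was possible because no antibody and condition had more than 1 library. Depth and the spread between cultures were not analysed here.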
